A study of Mus musculus with 8 samples.

Results

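The 10 genes described here encode cytokines and growth factors of the thymic niche, namely Il7, Kitl, Flt3l, Il15, Tslp, Bmp4, Fgf21, Tgfb2, Vegfa and Pdgfa. They were chosen by gene symbol and not by a cut on their values, though earlier results of these data were known. All 10 were found among the 25466 genes of the count table and passed the filter on low counts. The cells were medullary thymic epithelial cells (mTECs) of wild-type BL6N6 mice aged 4 to 6 weeks. They were sorted as Epcampos, CD45neg and CDR1neg cells and divided by surface Tspan8 (neg or pos) and MHCII (lo or hi). Each of the 4 subsets, Tspan8negMHCIIlo, Tspan8negMHCIIhi, Tspan8posMHCIIhi and Tspan8posMHCIIlo, had 2 libraries described as biological replicates. How many mice went into a library, and whether libraries with the same replicate number came from the same mice, is not given in the sources used here. The p-values therefore judge differences between subsets against the spread between replicate libraries, estimated over all 4 subsets together, and not against the spread between mice. Tspan8 is used in the study as an example of a tissue-restricted antigen (TRA), and MHCII as a sign of maturation, although late mTEC stages also have low MHCII.

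Thymic epithelial cells support T cell development with short-range signals. IL-7 keeps early thymocytes alive, KITL (stem cell factor) and FLT3L act on haematopoietic progenitors and dendritic cells, IL-15 supports natural killer and memory-type T cells, and TSLP acts on dendritic cells. BMP4 and TGF-beta ligands act on the epithelium itself and on stroma, VEGFA on blood vessels and PDGFA on mesenchyme, while FGF21 is best known as a hormone of the liver that needs an FGF receptor together with beta-Klotho.

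Library totals ranged from 1941518 to 7783841 counts, and 3 counts, used as the floor of detection, corresponded to between 0.385 and 1.55 CPM, the count scaled to the library total. The smallest library was replicate 1 of Tspan8posMHCIIlo. The replicates of Tspan8negMHCIIlo differed most, with a chi-square statistic of 10.6 per gene against 3.47 to 5.63 in the other subsets. The summed level of 8 thymocyte markers was 423 CPM in replicate 1 and 1220 CPM in replicate 2 of that subset and between 67.2 and 196 CPM in the other 6 libraries. All 8 thymocyte markers were above the floor in all libraries, although the cells had been sorted as CD45neg. Markers of medullary epithelium summed to between 6390 and 11500 CPM and those of cortical epithelium to between 494 and 1300 CPM. The medullary sum was highest in Tspan8negMHCIIhi and the cortical sum in Tspan8negMHCIIlo. The medullary list includes Tspan8 and the MHCII gene H2-Ab1, so its sum partly follows the sort itself. Single markers of both lists differed in direction. With MHCII in Tspan8neg, 3 of 8 medullary markers were called higher and 2 lower in the test described below. Of the 8 cortical markers, 2 were called higher and 3 lower there, against 13.1% higher and 9.67% lower of all genes. The 5 B cell markers summed to between 23.0 and 65.9 CPM. Tspan8 RNA followed the labels, with 1560 to 1820 normalized counts in the 4 Tspan8pos libraries and 16.3 to 64.5 in the 4 Tspan8neg libraries. H2-Ab1, an MHCII gene, was higher in MHCIIhi by 1.42 on the log2 scale in Tspan8neg and by 2.33 in Tspan8pos. In Tspan8posMHCIIhi it was only 0.42 above Tspan8negMHCIIlo, which was not called in the test described below. Levels are given as normalized counts, for which each library was scaled by its DESeq2 size factor, and values are given for replicates 1 and 2 in that order.

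**Figure D1:**
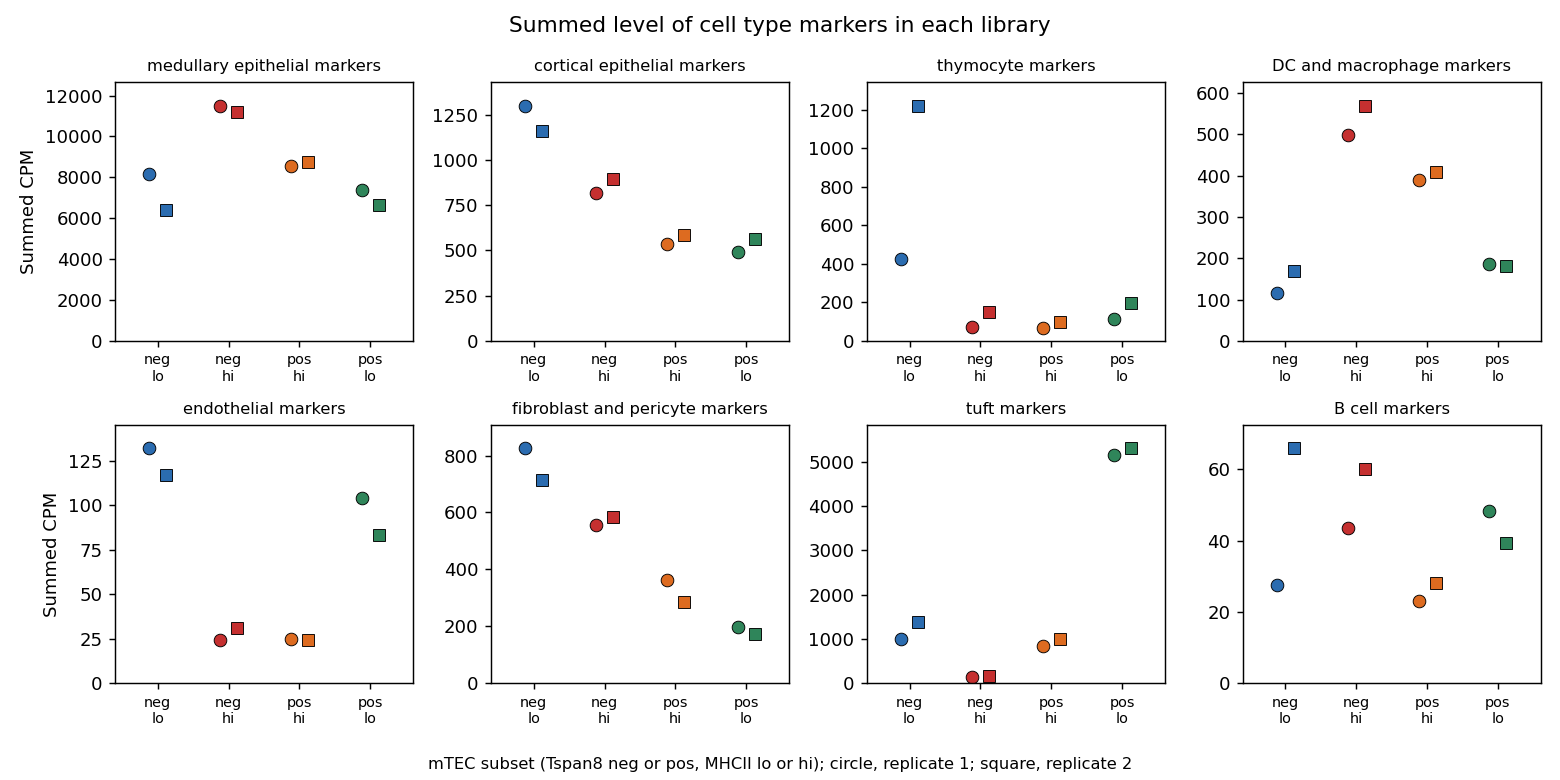
Summed CPM of the genes of 8 marker lists in each library (y axis) for the 4 mTEC subsets (x axis), with replicate 1 as a circle and replicate 2 as a square. Thymocyte markers stood highest in replicate 2 of Tspan8negMHCIIlo (1220 CPM), endothelial markers were at 83.5 CPM or more in the 4 MHCIIlo libraries and at 31.1 CPM or less in the 4 MHCIIhi libraries, and tuft markers were highest in Tspan8posMHCIIlo.

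Per kilobase of annotated exon, which allows levels of different genes to be compared, the members covered a wide range. The mean over the 8 libraries was 552 normalized counts per kilobase for Fgf21, a level at the 98.0th percentile of the genes tested, and 197 for Vegfa, at the 93.4th percentile. Pdgfa followed with 71.9 and Flt3l with 50.5. Il15 (26.3), Tgfb2 (22.5) and Il7 (19.5) lay near the middle of the genes tested. Tslp had 12.2, Kitl 8.50 and Bmp4 4.08 normalized counts per kilobase, the last at the 13.6th percentile.

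In the comparisons below a gene was called at a Benjamini-Hochberg adjusted p under 0.01 in edgeR's quasi-likelihood test if it also changed by 1 or more on the log2 scale, over 17006 genes tested in 1 fit of all 8 libraries. Log2 fold changes are given with their standard error (SE). Between Tspan8pos and Tspan8neg mTECs with low MHCII, 5 of the 10 members were called, against 21.4% of all genes tested. The 3 higher in Tspan8posMHCIIlo were Flt3l, Tslp and Tgfb2, against 12.1% of all genes, and the 2 lower were Fgf21 and Pdgfa, against 9.34%. With high MHCII, 3 of 10 were called against 18.5% of all genes, with Vegfa higher (11% of all genes) and Il15 and Fgf21 lower (7.45%) in Tspan8posMHCIIhi. Within Tspan8neg mTECs 5 of 10 members differed between the MHCII levels, against 22.7% of all genes, with Flt3l, Il15, Fgf21 and Tgfb2 higher (13.1%) and Bmp4 lower (9.67%) in MHCIIhi. Within Tspan8pos mTECs 1 of 10 was called, against 7.21% of all genes, and this was Fgf21, higher in MHCIIhi (4.59% of all genes were higher and 2.62% lower). The median log2 fold change of the 10 members was -0.21, 0.14, 0.42 and 0.61 in these 4 comparisons, beside -0.03, -0.03, -0.04 and 0.01 over all genes tested. The interaction, that is the Tspan8 effect in MHCIIlo minus that in MHCIIhi, was called for 0 members in edgeR against 4.6% of all genes, 2.36% with a positive and 2.24% with a negative sign. In this test 7 members had an unadjusted p under 0.05, and DESeq2 also called 0.

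Across the diagonal of the sort, Tspan8posMHCIIlo against Tspan8negMHCIIhi gave 5 called members, against 29.3% of all genes, with Bmp4 and Vegfa higher (14.7%) and Il15, Fgf21 and Pdgfa lower (14.6%) in Tspan8posMHCIIlo. Tspan8posMHCIIhi against Tspan8negMHCIIlo gave 3, against 24.7% of all genes, with Flt3l, Tslp and Tgfb2 higher in Tspan8posMHCIIhi, where 14.4% of all genes were higher and 10.3% lower. The comparisons share libraries, and each is therefore given with its own values. Il7 and Kitl were called in none of the 7 comparisons.

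**Figure D2:**
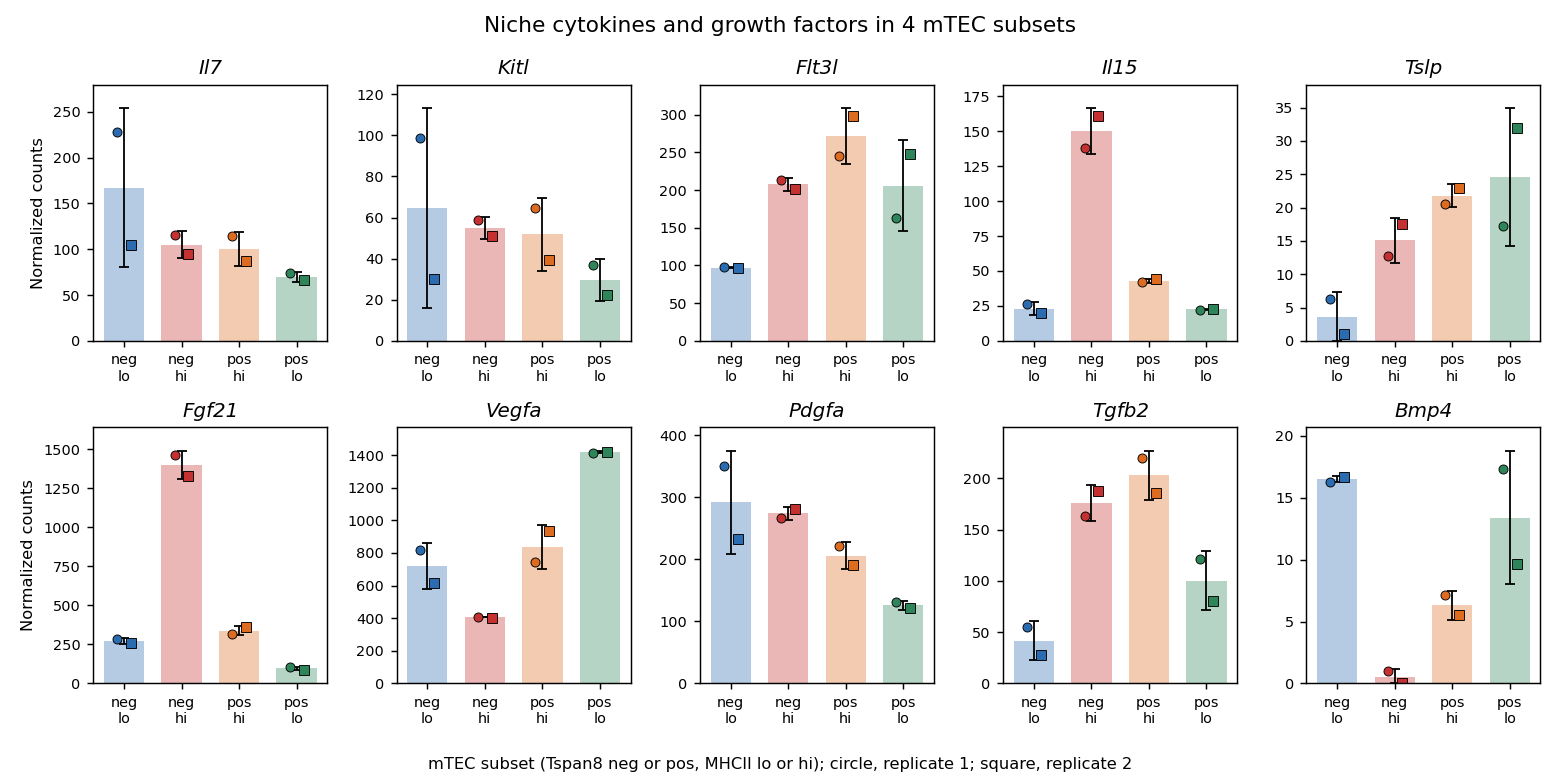
Normalized counts of the 10 members (y axis, linear from 0) in the 4 mTEC subsets (x axis), with replicate 1 as a circle, replicate 2 as a square, bars for the mean and error bars for the SD of 2 libraries, cut at 0. Fgf21 and Il15 stood highest in Tspan8negMHCIIhi, Vegfa in Tspan8posMHCIIlo, and the Il7 and Kitl values of Tspan8negMHCIIlo lay far apart.

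Il7 had its highest and most variable level in Tspan8negMHCIIlo. Its normalized counts were 228 and 105 in Tspan8negMHCIIlo, 115 and 94.5 in Tspan8negMHCIIhi, 114 and 87.1 in Tspan8posMHCIIhi and 73.9 and 66.2 in Tspan8posMHCIIlo. Both libraries of Tspan8posMHCIIlo lay below the other 6, and the remaining subsets overlapped. In MHCIIlo the log2 difference of Tspan8pos from Tspan8neg was -1.26 (SE 0.33, adjusted p = 0.0111), which did not pass the threshold. Without replicate 2 of Tspan8negMHCIIlo it passed, at -1.72 (adjusted p = 5.27e-05). DESeq2's Wald test gave -1.26 with an adjusted p of 0.0086. The Il7 gene lies on chromosome 3 (7569994 to 7613760, minus strand, GRCm38), and its exons overlap those of Gm16685 on the opposite strand. Whether counting used the strand is not settled by the sources, so its counts are uncertain. Il7r, the specific chain of its receptor, had means between 23.7 (Tspan8negMHCIIhi) and 56.3 normalized counts (Tspan8posMHCIIhi) and was not called in any comparison.

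Kitl showed the same wide spread between the Tspan8negMHCIIlo libraries. It had 98.9 and 30.2 normalized counts in Tspan8negMHCIIlo, 58.7 and 51.2 in Tspan8negMHCIIhi, 64.4 and 39.4 in Tspan8posMHCIIhi and 37.0 and 22.3 in Tspan8posMHCIIlo. The Tspan8negMHCIIlo replicates enclosed all values but the lowest, that of Tspan8posMHCIIlo replicate 2. The Tspan8pos to Tspan8neg difference in MHCIIlo was -1.22 (SE 0.53, adjusted p = 0.0873) and became -1.88 (adjusted p = 0.00139) without Tspan8negMHCIIlo replicate 2. For both Il7 and Kitl, replicate 1 of Tspan8negMHCIIlo was the higher library, whereas the thymocyte markers were higher in replicate 2. The part of those cells in the Il7 and Kitl values was not tested.

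Kit, the receptor of KITL, moved more clearly than its ligand. Its normalized counts were 432 and 474 in Tspan8negMHCIIlo, 817 and 664 in Tspan8negMHCIIhi, 555 and 529 in Tspan8posMHCIIhi and 1420 and 1210 in Tspan8posMHCIIlo. The Tspan8posMHCIIlo libraries stood above all others. Kit rose by 1.52 on the log2 scale (SE 0.15, adjusted p = 1.69e-05) with Tspan8 in MHCIIlo and was lower in MHCIIhi than in MHCIIlo within Tspan8pos mTECs (-1.29, SE 0.15, adjusted p = 0.000191). The Tspan8 effect differed between the MHCII levels by 1.91 (SE 0.21, adjusted p = 0.000442). These 3 calls held in every alternative run. The 6 tuft markers were also highest in Tspan8posMHCIIlo, summing to 5160 and 5300 CPM there, to 992 and 1390 CPM in Tspan8negMHCIIlo and to 848 and 998 CPM in Tspan8posMHCIIhi, but were lowest, at 140 and 161 CPM, in Tspan8negMHCIIhi, where Kit was second highest. Their part in the Kit values was not tested. In sorted bulk samples a larger share of one cell type and more RNA of a gene per cell cannot be told apart.

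Flt3l was lowest in Tspan8negMHCIIlo. It had 97.7 and 96.8 normalized counts there, 214 and 202 in Tspan8negMHCIIhi, 246 and 298 in Tspan8posMHCIIhi and 163 and 248 in Tspan8posMHCIIlo. No library of another subset reached down to the Tspan8negMHCIIlo values, and Tspan8negMHCIIhi and Tspan8posMHCIIlo overlapped. The increase was 1.13 (SE 0.22, adjusted p = 0.00163) with Tspan8 in MHCIIlo, 1.01 (SE 0.21, adjusted p = 0.0028) with MHCII in Tspan8neg and 1.46 (SE 0.21, adjusted p = 0.000218) in Tspan8posMHCIIhi against Tspan8negMHCIIlo. The first of these was 0.73 (adjusted p = 0.0513) without Tspan8posMHCIIlo replicate 2. Without Tspan8negMHCIIhi replicate 1 or 2 the second missed the threshold (adjusted p = 0.0127 and 0.0109), and the third held in every alternative. Flt3l lies on chromosome 7 (45129788 to 45136432, minus strand), where its exons overlap those of Gm45713 on the same strand. Its counts are therefore uncertain too, whether or not counting used the strand.

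Flt3, which encodes the receptor, followed another order than the ligand, with 76.3 and 81.8 normalized counts in Tspan8negMHCIIhi and 2.46 to 18.7 in the other 6 libraries. It was higher in Tspan8negMHCIIhi than in Tspan8negMHCIIlo by 2.13 (SE 0.37, adjusted p = 0.000928) and lower in Tspan8posMHCIIhi than in Tspan8negMHCIIhi by 2.52 (log2 difference -2.52, SE 0.37, adjusted p = 0.000351). FLT3 is expressed by dendritic cells and their progenitors, which carry CD45 and which the CD45neg sort should remove. The 9 dendritic cell and macrophage markers, Flt3 among them, summed to 499 and 569 CPM in Tspan8negMHCIIhi, 389 and 409 CPM in Tspan8posMHCIIhi and 115 to 185 CPM in the MHCIIlo libraries. All 9 of these markers were above the floor in both libraries of each MHCIIhi subset, and 7 and 6 of them in Tspan8negMHCIIlo and Tspan8posMHCIIlo. The markers did not move together. With Tspan8 in MHCIIhi, Flt3, Adgre1 (-2.57) and Zbtb46 (-1.06) were called lower, Sirpa (1.35) was called higher, and the other 5 were not called. Itgax, with 41.3 and 113 normalized counts, was highest in Tspan8negMHCIIlo. Their part in the Flt3 values was not tested.

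Il15 stood out in Tspan8negMHCIIhi. It had 26.3 and 19.8 normalized counts in Tspan8negMHCIIlo, 138 and 161 in Tspan8negMHCIIhi, 42.1 and 44.0 in Tspan8posMHCIIhi and 22.2 and 22.9 in Tspan8posMHCIIlo. Both Tspan8negMHCIIhi libraries lay above all others, Tspan8posMHCIIhi came next, and the MHCIIlo subsets overlapped. Il15 rose with MHCII in Tspan8neg by 2.62 (SE 0.27, adjusted p = 2.56e-05), was lower with Tspan8 in MHCIIhi (-1.74, SE 0.24, adjusted p = 0.000212) and lower in Tspan8posMHCIIlo than in Tspan8negMHCIIhi (-2.64, SE 0.27, adjusted p = 1.36e-05). All 3 calls held in every alternative. Between the MHCII levels of Tspan8pos mTECs the difference was 0.90 (SE 0.29, adjusted p = 0.055). The interaction was 1.73 (SE 0.40, adjusted p = 0.0174), and passed (adjusted p = 0.00953) without Tspan8negMHCIIlo replicate 1. Dendritic cells and macrophages also make IL-15. The sum of their markers was highest in the same subset, but single markers differed, as given above for Flt3. Their part in the Il15 values was not tested.

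IL-15 is presented on the cell surface by the receptor chain IL15RA. Il15ra had means of 491 ± 202 normalized counts in Tspan8negMHCIIlo, 566 ± 69.0 in Tspan8negMHCIIhi, 396 ± 2.39 in Tspan8posMHCIIhi and 283 ± 7.87 in Tspan8posMHCIIlo (SD, n = 2), and it was not called in any comparison. Il2rg, the common gamma chain shared with the IL-7 receptor, was called more often, with 312 and 488 normalized counts in Tspan8negMHCIIlo, 1430 in both Tspan8negMHCIIhi libraries, 719 and 699 in Tspan8posMHCIIhi and 239 and 251 in Tspan8posMHCIIlo. It was higher with MHCII by 1.75 (SE 0.19, adjusted p = 3.69e-05) in Tspan8neg and by 1.50 in Tspan8pos (SE 0.19, adjusted p = 0.000386). Il2rb, the beta chain, was lower with Tspan8 at both MHCII levels, by -2.17 (SE 0.43, adjusted p = 0.0021) in MHCIIlo and -1.76 (SE 0.37, adjusted p = 0.00321) in MHCIIhi. Each of these Il2rb calls held in 10 of 14 alternatives. Il2rg and Il2rb are also expressed by lymphocytes.

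Tslp was near the limit of detection in Tspan8negMHCIIlo. Its raw counts were 5 and 1 in Tspan8negMHCIIlo, 13 and 29 in Tspan8negMHCIIhi, 23 and 25 in Tspan8posMHCIIhi and 7 and 53 in Tspan8posMHCIIlo. Normalized counts were 6.26 and 1.04, 12.7 and 17.5, 20.6 and 22.9, and 17.3 and 31.9 in the same order, so that every other library lay above both Tspan8negMHCIIlo libraries. It was called higher in Tspan8posMHCIIlo (2.89, SE 0.69, adjusted p = 0.00615) and in Tspan8posMHCIIhi (2.59, SE 0.69, adjusted p = 0.00994) than in Tspan8negMHCIIlo. The ratio of summed counts, scaled by size factors, was 8.51 (95% counting interval 3.69 to 24.1) for the first. Neither call was stable, since DESeq2 gave adjusted p-values of 0.0154 and 0.0243, and the first was also lost when any of 6 libraries was left out (adjusted p up to 0.119, without Tspan8posMHCIIlo replicate 2). Crlf2, the specific receptor chain, had means between 35.7 and 82.4 normalized counts and was not called in any comparison.

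The 250 bases before the RefSeq start sites (GRCm38.p6) of Fgf21, Tgfb2, Bmp4 and Vegfa are shown here. Fgf21, Tgfb2 and Bmp4 are shown because they share the letters CACGTG, while the Vegfa window shown has other matches. Windows of the other members, Pdgfa among them, are not shown. Capitals mark matches, on either strand, to CACGTG, to TATAAA (the TATA box) and to CACCC (a KLF-type motif, GGGTG on the other strand). The sequences read 5′ to 3′ on the gene's strand, which is the minus strand for all 4, and the gene starts after the last base. The windows are chr7:45615491-45615740 for Fgf21, chr1:186705990-186706239 for Tgfb2, chr14:46390670-46390919 for Bmp4 and chr17:46032378-46032627 for Vegfa.
Fgf21: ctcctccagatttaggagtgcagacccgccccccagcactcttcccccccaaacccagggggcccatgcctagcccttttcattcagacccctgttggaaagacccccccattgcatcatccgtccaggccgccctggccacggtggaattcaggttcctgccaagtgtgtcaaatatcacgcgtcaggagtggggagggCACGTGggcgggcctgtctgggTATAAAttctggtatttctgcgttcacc
Tgfb2: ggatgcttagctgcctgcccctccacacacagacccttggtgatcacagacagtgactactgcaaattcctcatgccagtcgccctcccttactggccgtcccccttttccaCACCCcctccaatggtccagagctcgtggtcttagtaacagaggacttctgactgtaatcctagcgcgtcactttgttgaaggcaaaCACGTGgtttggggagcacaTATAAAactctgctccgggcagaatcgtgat
Bmp4: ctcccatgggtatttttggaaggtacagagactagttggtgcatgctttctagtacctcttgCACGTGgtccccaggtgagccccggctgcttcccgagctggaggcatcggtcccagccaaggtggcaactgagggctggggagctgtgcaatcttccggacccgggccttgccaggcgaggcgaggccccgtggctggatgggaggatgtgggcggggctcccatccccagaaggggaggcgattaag
Vegfa: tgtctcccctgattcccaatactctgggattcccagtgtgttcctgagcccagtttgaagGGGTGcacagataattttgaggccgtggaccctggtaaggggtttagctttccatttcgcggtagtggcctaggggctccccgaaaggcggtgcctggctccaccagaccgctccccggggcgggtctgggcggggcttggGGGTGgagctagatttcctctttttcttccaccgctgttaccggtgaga
In Fgf21, CACGTG lies at positions -50 to -45 and TATAAA at -28 to -23, counted from the start site, and in Tgfb2 they lie at -51 to -46 and -31 to -26. In Bmp4, CACGTG lies at -188 to -183, with no TATAAA in the window. A second annotated Vegfa start, on the same chromosome, has a window (chr17:46025114-46025413, not shown) that holds ACGTG at -211 to -207. CACGTG is an E-box motif. By its letters alone it always holds ACGTG, the hypoxia response element core, on both strands. Among 32851 annotated mouse promoter windows of 300 bases (250 before to 50 after the start), 19.6% held ACGTG, 13.6% TATAAA, 57.5% CACCC, 35.4% AGGAAG (an ETS-type motif) and 5.2% TGACTCA (AP-1). CACGTG was in 7.2% and both CACGTG and TATAAA in 0.67%, and these last 2 searches were chosen after the matches had been seen. Over the 9 windows used for 7 members, AGGAAG was found in those of Pdgfa, Flt3l and Bmp4 and TATAAA also in that of Kitl, and TGACTCA in none. A match is a description of the letters and does not show a binding site.

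Fgf21 had the largest differences of the members in normalized counts and, apart from the low-count Bmp4, on the log2 scale. It had 287 and 258 normalized counts in Tspan8negMHCIIlo, 1460 and 1330 in Tspan8negMHCIIhi, 318 and 359 in Tspan8posMHCIIhi and 104 and 87.2 in Tspan8posMHCIIlo. No subset overlapped another. Tspan8negMHCIIhi was 4.13 times the next subset by mean, Tspan8posMHCIIhi 1.24 times Tspan8negMHCIIlo (adjusted p = 0.119, not distinguished), and Tspan8negMHCIIlo 2.86 times Tspan8posMHCIIlo. Fgf21 was lower with Tspan8 in MHCIIlo (-1.55, SE 0.16, adjusted p = 2.59e-05) and in MHCIIhi (-1.98, SE 0.14, adjusted p = 1.64e-06). It was higher with MHCII in Tspan8neg (2.27, SE 0.14, adjusted p = 1.47e-06) and in Tspan8pos (1.84, SE 0.16, adjusted p = 2.97e-05). Tspan8posMHCIIlo lay below Tspan8negMHCIIhi by 3.82 on the log2 scale (-3.82, SE 0.16, adjusted p = 3.53e-08). Each of these 5 calls held in every alternative, and the interaction, at 0.43 (SE 0.21, adjusted p = 0.223), was not called. Fgf21 lies on chromosome 7 (45613886 to 45615490, minus strand) in 1 annotated transcript with no exon overlap.

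The genes most like Fgf21 in log2 CPM over the 8 libraries, among 11050 genes that averaged 10 CPM or more, were Icosl, Cd40 and Fn1, each with a Pearson r of 0.994. ICOSL and CD40 are costimulatory molecules and Fn1 encodes fibronectin. For Il15 they were Snn (0.996), Neo1 (0.993) and Snx29 (0.993), and for Tgfb2 Slc26a4 (0.993), B2m (0.987) and Skint1 (0.986). These are descriptions over 8 libraries of 4 subsets, in which most of the variation is between subsets. Among the members, Fgf21 was most like Il15 (r = 0.915) and most unlike Vegfa (r = -0.956).

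The receptors that can bind FGF ligands were arranged differently from Fgf21. Klb, the beta-Klotho co-receptor, had 3.91 and 7.22 normalized counts in Tspan8negMHCIIhi, 3.58 and 0 in Tspan8posMHCIIhi and 0 in all 4 MHCIIlo libraries, and did not pass the filter. Fgfr2 had 1020 and 551 in Tspan8negMHCIIlo and 103 to 239 in the other 6 libraries, and fell by 2.90 on the log2 scale with MHCII in Tspan8neg (SE 0.27, adjusted p = 1.29e-05) and by 1.95 with Tspan8 in MHCIIlo (SE 0.26, adjusted p = 0.000149). Fgfr1 (157 and 151) and Fgfr4 (61.4 and 53.1) were likewise highest in Tspan8negMHCIIlo, with 31.3 to 77.6 and 6.27 to 16.2 elsewhere.

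Fgfr3 ran the other way, with 46.3 and 37.5 normalized counts in Tspan8negMHCIIlo, 131 and 105 in Tspan8negMHCIIhi, 214 and 247 in Tspan8posMHCIIhi and 301 and 339 in Tspan8posMHCIIlo. The 4 subsets did not overlap. It was called higher with Tspan8 by 2.95 (SE 0.21, adjusted p = 1.45e-06) in MHCIIlo and by 1.04 (SE 0.18, adjusted p = 0.000907) in MHCIIhi, where the call is close to the fold limit and was missed in 5 of 14 alternatives. The interaction was 1.91 for Fgfr3 (SE 0.28, adjusted p = 0.00179) and -2.55 for Fgfr2 (SE 0.37, adjusted p = 0.00198).

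**Figure D3:**
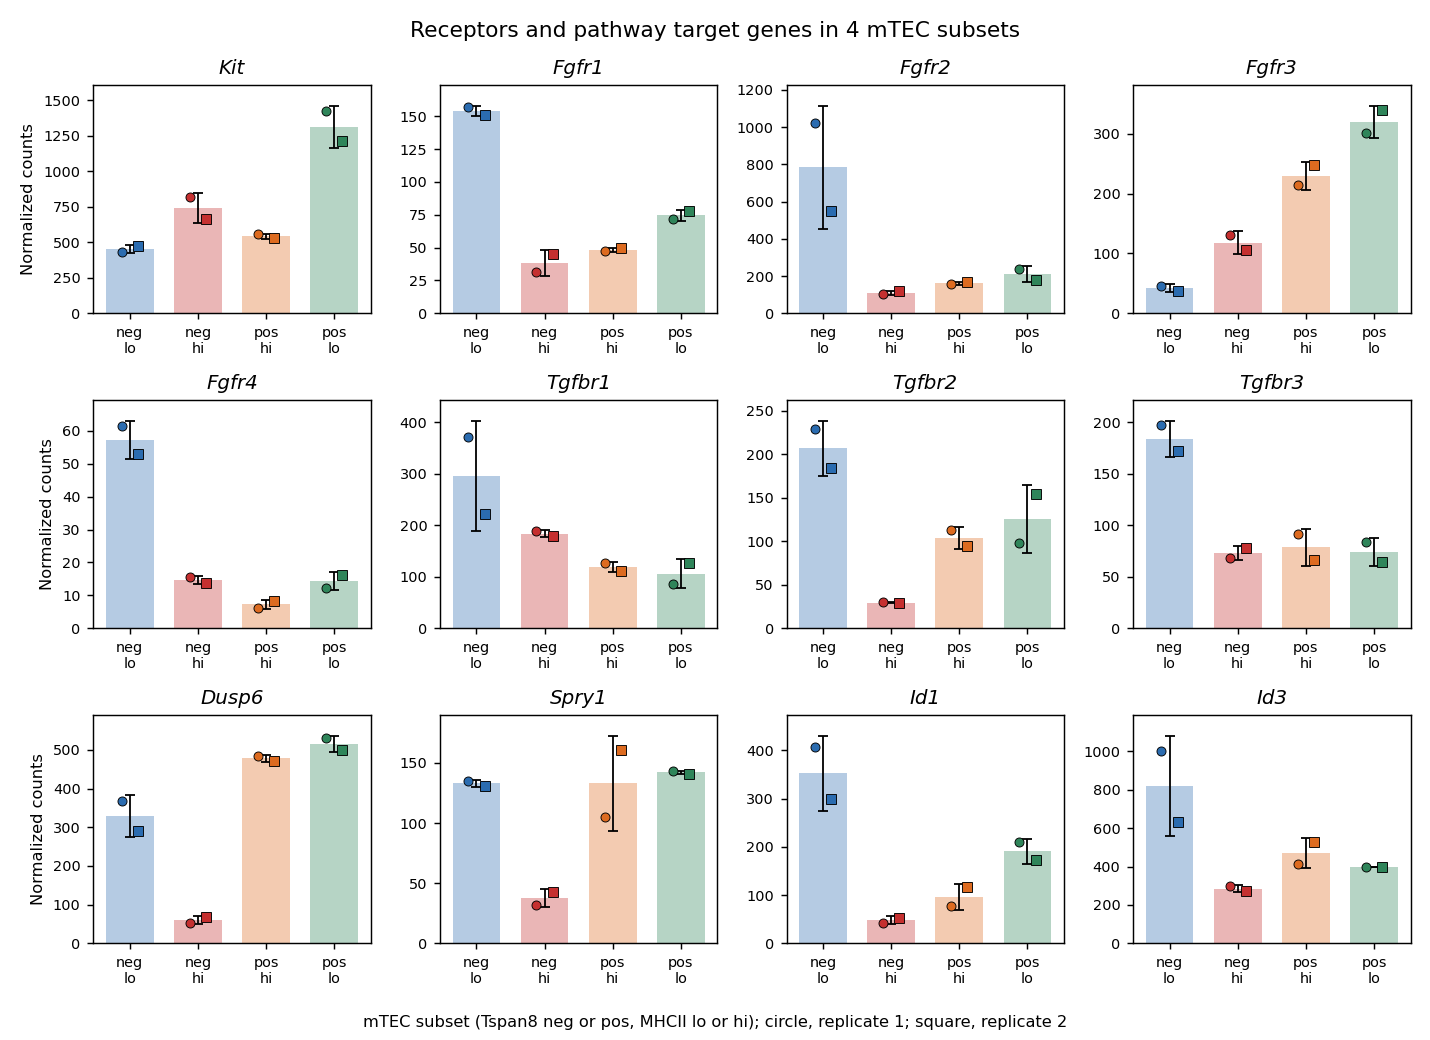
Normalized counts (y axis, linear from 0) of 8 receptors and 4 pathway target genes in the 4 mTEC subsets (x axis), with symbols, bars and error bars as in the plot of the members. Kit and Fgfr3 were highest in Tspan8posMHCIIlo, Fgfr1, Fgfr2, Fgfr4 and Tgfbr1 to Tgfbr3 in Tspan8negMHCIIlo, and Tgfbr2, Dusp6, Spry1 and Id1 were lowest in Tspan8negMHCIIhi.

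Vegfa was highest in Tspan8posMHCIIlo and lowest in Tspan8negMHCIIhi. It had 817 and 617 normalized counts in Tspan8negMHCIIlo, 405 and 404 in Tspan8negMHCIIhi, 742 and 935 in Tspan8posMHCIIhi and 1410 and 1420 in Tspan8posMHCIIlo. Tspan8negMHCIIlo and Tspan8posMHCIIhi overlapped, and the subsets at either end stood clear of them. The difference between the ends was 1.89 (SE 0.17, adjusted p = 4.27e-06), called in every alternative. Within MHCIIhi, Vegfa was higher with Tspan8 by 1.11 (SE 0.16, adjusted p = 0.000335), or by 0.95 without Tspan8posMHCIIhi replicate 2, which is below the fold limit. Within MHCIIlo the difference was 0.99 (SE 0.16, adjusted p = 0.000646), just under the limit of 1, and 1.19 without Tspan8negMHCIIlo replicate 1. With MHCII it was -0.91 (SE 0.16, adjusted p = 0.00119) in Tspan8neg and -0.78 (SE 0.16, adjusted p = 0.00705) in Tspan8pos, also under the fold limit.

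The receptors of VEGFA mark endothelium but are also found on other cells. Flt1 had 271 and 304 normalized counts in Tspan8posMHCIIlo and 54.1 to 172 in the other 6 libraries, and was called higher in Tspan8posMHCIIlo than in Tspan8negMHCIIhi (1.47, SE 0.37, adjusted p = 0.00634). This Flt1 call held in 9 of 14 alternatives. Kdr had means of 4.59 to 24.7 and was not called in any comparison. Nrp1 was highest in Tspan8negMHCIIlo (104 and 110) and fell by 1.88 on the log2 scale with MHCII in Tspan8neg (SE 0.32, adjusted p = 0.000834), while Nrp2 was highest in Tspan8negMHCIIhi (335 and 351). Flt4 was called only in Tspan8posMHCIIlo against Tspan8negMHCIIhi (-3.07, SE 0.69, adjusted p = 0.00346), at means of 6.13 and 38.7. The 5 endothelial markers, which include Kdr, summed to 132 and 117 CPM in Tspan8negMHCIIlo, 24.4 and 31.1 in Tspan8negMHCIIhi, 25.0 and 24.6 in Tspan8posMHCIIhi and 104 and 83.5 in Tspan8posMHCIIlo, with Emcn at 0 in 3 of the 4 MHCIIhi libraries. Their part in the values of these receptors was not tested.

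VEGFA is a classic target of hypoxia-inducible factors, and 12 hypoxia-induced genes were therefore set beside it. With Tspan8, 1 of the 12 was called higher and 2 lower in MHCIIlo, and 2 higher in MHCIIhi. With MHCII, 2 were higher and 2 lower in Tspan8neg and 1 was higher in Tspan8pos. The share called was 25%, 16.7%, 33.3% and 8.33%, against 21.4%, 18.5%, 22.7% and 7.21% of all genes, and the medians of the list were -0.09, -0.21, -0.25 and 0.25. Egln3, an oxygen sensor, was ordered like Vegfa, with means of 99.8 ± 4.14 normalized counts in Tspan8negMHCIIhi, 266 ± 38.0 in Tspan8negMHCIIlo, 790 ± 57.4 in Tspan8posMHCIIhi and 849 ± 16.3 in Tspan8posMHCIIlo (SD, n = 2). It rose with Tspan8 by 1.67 (SE 0.15, adjusted p = 6.46e-06) in MHCIIlo and by 3.05 (SE 0.15, adjusted p = 2.63e-07) in MHCIIhi. Adm, encoding adrenomedullin, went the other way in MHCIIlo (-1.57, SE 0.16, adjusted p = 2.39e-05). Slc2a1, the glucose transporter, was higher in Tspan8posMHCIIlo than in Tspan8negMHCIIhi by 1.79 (SE 0.16, adjusted p = 5.6e-06). Bnip3 was higher with MHCII in Tspan8neg by 1.88 (SE 0.21, adjusted p = 4.58e-05), where Ndrg1 fell by 1.91 (SE 0.25, adjusted p = 0.000135).

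Fgf21 is a known target of the integrated stress response, the ATF4 pathway, and 10 genes of that response were listed. With Tspan8, 1 was higher and 1 lower in MHCIIlo and 1 higher in MHCIIhi, and with MHCII 2 were higher and 1 lower in Tspan8neg and 1 lower in Tspan8pos. The share called was 20%, 10%, 30% and 10%, against 21.4%, 18.5%, 22.7% and 7.21% of all genes, and the list medians were 0.71, -0.12, 0.55 and 0.02. Gdf15, a stress hormone, had 31.3 and 34.3 normalized counts in Tspan8negMHCIIlo, 330 and 320 in Tspan8negMHCIIhi, 175 and 226 in Tspan8posMHCIIhi and 113 and 91.4 in Tspan8posMHCIIlo. Like Fgf21 it was highest in Tspan8negMHCIIhi, but it was lowest in Tspan8negMHCIIlo, and it rose by 3.21 (SE 0.21, adjusted p = 1.76e-06) with MHCII in Tspan8neg. Sesn2 rose by 1.44 in that comparison (SE 0.15, adjusted p = 3.53e-05) and Atf3 fell by 1.66 (-1.66 on the log2 scale, SE 0.17, adjusted p = 2.91e-05). Atf4 itself, which is controlled mainly at translation, was not called in any comparison. Psat1, a serine synthesis enzyme, was lower with Tspan8 in MHCIIlo (-2.14, SE 0.20, adjusted p = 1.14e-05), and Ddit4 passed the fold limit narrowly in MHCIIhi (1.01, SE 0.21, adjusted p = 0.00286) and was not called in 8 of 14 alternatives.

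Pdgfa was lowest in Tspan8posMHCIIlo. It had 351 and 233 normalized counts in Tspan8negMHCIIlo, 266 and 281 in Tspan8negMHCIIhi, 221 and 191 in Tspan8posMHCIIhi and 131 and 121 in Tspan8posMHCIIlo. The Tspan8neg subsets overlapped, and both Tspan8pos subsets lay below them. It was lower with Tspan8 in MHCIIlo (-1.22, SE 0.21, adjusted p = 0.000725) and in Tspan8posMHCIIlo against Tspan8negMHCIIhi (-1.05, SE 0.20, adjusted p = 0.00126). The first call was lost without Tspan8negMHCIIlo replicate 1 (-0.92) or Tspan8posMHCIIlo replicate 2 (adjusted p = 0.0203), and the second without the latter (adjusted p = 0.0303). Pdgfa lies on chromosome 5 (138976014 to 138997370, minus strand) and its exons overlap 6330403L08Rik on the opposite strand.

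PDGFA acts on mesenchyme through PDGFRA. Pdgfra was low, with means of 22.8 normalized counts in Tspan8negMHCIIlo, 3.65 in Tspan8negMHCIIhi, 4.09 in Tspan8posMHCIIhi and 15.2 in Tspan8posMHCIIlo, and was called lower in MHCIIhi in Tspan8neg (-2.76, SE 0.63, adjusted p = 0.00486) but in 6 of 13 alternatives only. Pdgfrb had 279 and 224 normalized counts in Tspan8negMHCIIhi and 51.8 to 121 elsewhere, and was higher with MHCII in Tspan8neg by 1.42 (SE 0.31, adjusted p = 0.00399). This Pdgfrb call held in 10 of 14 alternatives. The 9 fibroblast and pericyte markers, which include Pdgfra and Pdgfrb, summed to 825 and 713 CPM in Tspan8negMHCIIlo, 555 and 583 in Tspan8negMHCIIhi, 362 and 287 in Tspan8posMHCIIhi and 197 and 174 in Tspan8posMHCIIlo, the same order of subset means as Pdgfa. Single markers differed from this order, since with MHCII in Tspan8neg Col1a1 (1.66) and Pdgfrb were called higher and 4 others lower. Between 8 and 9 of them were above the floor in both libraries of every subset. Their part in the Pdgfa, Pdgfra and Pdgfrb values was not tested.

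Tgfb2 was highest in the MHCIIhi subsets and lowest in Tspan8negMHCIIlo. It had 55.1 and 28.1 normalized counts in Tspan8negMHCIIlo, 163 and 188 in Tspan8negMHCIIhi, 220 and 186 in Tspan8posMHCIIhi and 121 and 80.0 in Tspan8posMHCIIlo. The MHCIIhi subsets overlapped with each other and lay above the MHCIIlo subsets. Tgfb2 rose with MHCII in Tspan8neg by 2.02 (SE 0.29, adjusted p = 0.000261) and was higher in Tspan8posMHCIIhi than in Tspan8negMHCIIlo by 2.29 (SE 0.29, adjusted p = 9.24e-05), and both calls held in every alternative. With MHCII in Tspan8pos the difference was 1.08 (SE 0.27, adjusted p = 0.0186), below the threshold here and past it without either Tspan8negMHCIIlo library (adjusted p = 0.000959 and 0.001). With Tspan8 in MHCIIlo it was 1.21 (SE 0.31, adjusted p = 0.00971), a call lost when any of 7 of the 8 libraries was left out (adjusted p up to 0.0624, without Tspan8negMHCIIlo replicate 2). Tgfb2 lies on chromosome 1 (186622792 to 186705989, minus strand) and its exons overlap Gm29491 on the opposite strand.

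The TGF-beta receptors had another order of subsets than the ligand. Tgfbr2 had 229 and 184 normalized counts in Tspan8negMHCIIlo, 30.3 and 28.9 in Tspan8negMHCIIhi, 113 and 94.5 in Tspan8posMHCIIhi and 98.6 and 154 in Tspan8posMHCIIlo. Tspan8negMHCIIhi lay far below the others. It fell with MHCII in Tspan8neg (-2.88, SE 0.26, adjusted p = 1.09e-05) and rose with Tspan8 in MHCIIhi by 1.87 (SE 0.26, adjusted p = 0.00023). The interaction was -2.51 (SE 0.35, adjusted p = 0.00149). Tgfbr1 (372 and 221) and Tgfbr3 (197 and 172) were highest in Tspan8negMHCIIlo and were called lower with Tspan8 in MHCIIlo, by -1.40 (SE 0.26, adjusted p = 0.00126) and -1.36 (SE 0.23, adjusted p = 0.000795).

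Bmp4 was the lowest member and nearly absent from Tspan8negMHCIIhi. Its raw counts were 13 and 16 in Tspan8negMHCIIlo, 1 and 0 in Tspan8negMHCIIhi, 8 and 6 in Tspan8posMHCIIhi and 7 and 16 in Tspan8posMHCIIlo, equal to 16.3 and 16.7, 0.979 and 0, 7.16 and 5.50, and 17.3 and 9.62 normalized counts. Both Tspan8negMHCIIhi libraries were under the floor of 3 counts and all others above it. Scaled by size factors, the summed counts were 44.2 times higher in Tspan8negMHCIIlo than in Tspan8negMHCIIhi (95% counting interval 7.33 to 1810), 29.8 times higher in Tspan8posMHCIIlo (4.85 to 1230) and 17.0 times higher in Tspan8posMHCIIhi (2.59 to 720). These intervals cover counting error only. The first 2 differences were called (adjusted p = 0.00158 and 0.00259), the third was not (adjusted p = 0.0173). Without Tspan8negMHCIIhi replicate 2 the first had an adjusted p of 0.0403. The second was lost when any of the 4 libraries compared was left out (adjusted p = 0.0103 to 0.0522), and DESeq2 gave 0.0101.

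Bmp4 lies on chromosome 14 (46383520 to 46390669, minus strand) and its exons overlap Gm15217 on the opposite strand. In the thymus BMP4 is known mainly from endothelium and mesenchyme. The endothelial markers were low in Tspan8negMHCIIhi, where Bmp4 was nearly absent. They were as low in Tspan8posMHCIIhi, where Bmp4 was above the floor in both libraries. With MHCII in Tspan8neg, where Bmp4 was called lower, 4 of the 9 fibroblast and pericyte markers were called lower and 2 higher (median -1.51). In Tspan8posMHCIIlo against Tspan8negMHCIIhi, where Bmp4 was called higher, 3 of these markers were called lower and 0 higher (median -0.09). The part of either cell type in the Bmp4 values was not tested. The BMP receptors Bmpr1a, Bmpr1b, Bmpr2 and Acvr1 were not called in any comparison, with subset means of 156 to 249, 2.71 to 18.0, 137 to 251 and 108 to 171 normalized counts. Acvr2a was higher with Tspan8 in MHCIIhi by 1.32 (SE 0.22, adjusted p = 0.000825), and Acvr2b was not called.

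**Figure D4:**
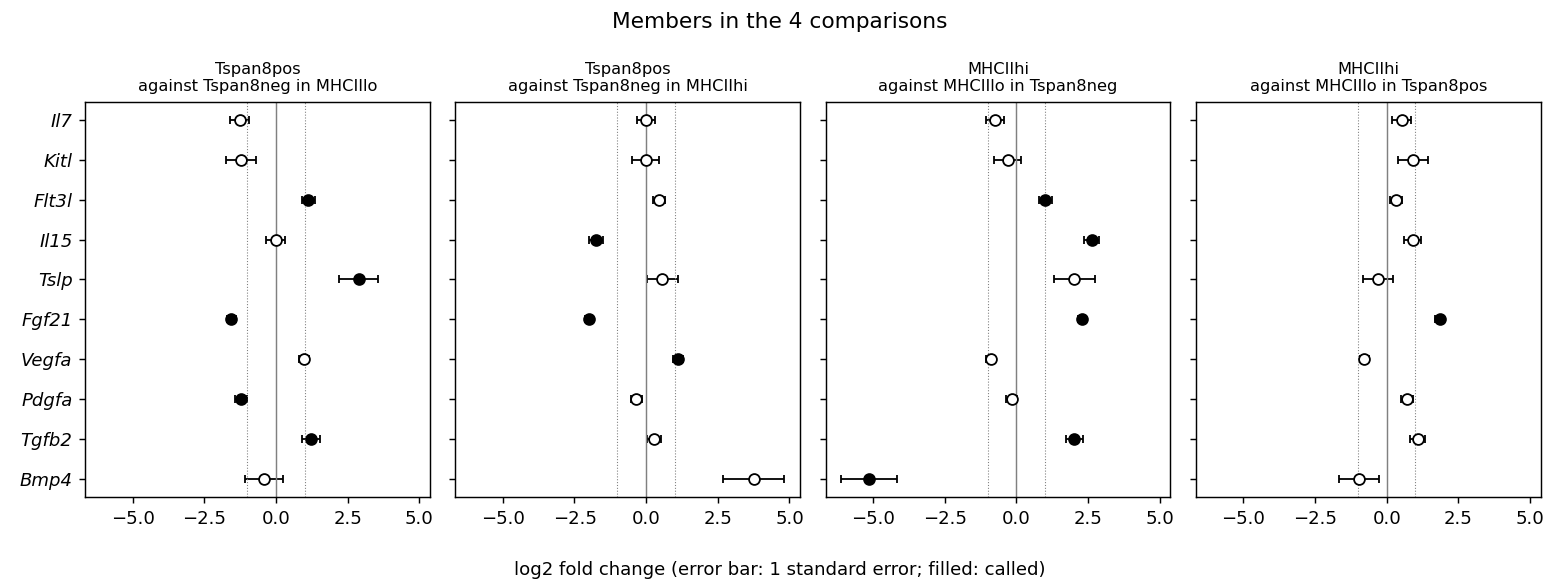
Log2 fold change of the 10 members (x axis) in the 4 comparisons along Tspan8 and MHCII, with error bars of 1 SE, filled circles for called members and dotted lines at the fold limit of 1 in either direction. Fgf21 was called in all 4 panels, whereas Il7 and Kitl were called in none, and the fitted size for Bmp4 against Tspan8negMHCIIhi rests on 1 count there.

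Of the 28 receptors of these ligands 27 passed the filter. With Tspan8, 2 were higher and 6 lower in MHCIIlo and 3 were higher and 3 lower in MHCIIhi. With MHCII, 4 were higher and 7 lower in Tspan8neg and 1 was higher and 1 lower in Tspan8pos. The share called was 29.6%, 22.2%, 40.7% and 7.41% of those tested, against 21.4%, 18.5%, 22.7% and 7.21% of all genes, with median log2 fold changes of -0.71, -0.13, -0.69 and -0.12.

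The RNA of target and feedback genes of the pathways does not measure signalling, which was not tested. The list held 22 such genes, which all passed the filter. With Tspan8, 6 were lower in MHCIIlo and 3 higher and 3 lower in MHCIIhi. With MHCII, 7 were lower in Tspan8neg, and edgeR and DESeq2 each called 0 in Tspan8pos, where 5 had an unadjusted p under 0.05. The share called was 27.3%, 27.3%, 31.8% and 0%, against 21.4%, 18.5%, 22.7% and 7.21% of all genes, and the list medians were -0.50, 0.37, -0.53 and -0.17. Id1, Id2 and Id3 are BMP target genes, and their means were highest in Tspan8negMHCIIlo (353, 420 and 819 normalized counts) and lowest in Tspan8negMHCIIhi (47.8, 155 and 285). Id1 fell by 2.94 on the log2 scale with MHCII in Tspan8neg (SE 0.25, adjusted p = 7.09e-06) and Id2 fell by 1.51 (SE 0.16, adjusted p = 3.02e-05). Socs3, a feedback inhibitor of cytokine signalling, fell by 2.40 (-2.40 on the log2 scale, SE 0.17, adjusted p = 2.42e-06) in that comparison and by 1.46 with Tspan8 in MHCIIlo (SE 0.16, adjusted p = 4e-05).

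Feedback genes of FGF and other receptor kinases did not move together. Dusp6, a phosphatase of the MAP kinase ERK, had 367 and 291 normalized counts in Tspan8negMHCIIlo, 53.8 and 68.6 in Tspan8negMHCIIhi, 484 and 472 in Tspan8posMHCIIhi and 530 and 500 in Tspan8posMHCIIlo. It was lowest in the subset with the most Fgf21, and a link between these genes was not tested. Dusp6 rose by 3.01 with Tspan8 in MHCIIhi (SE 0.18, adjusted p = 5.23e-07). Spry1 rose by 1.86 in the same comparison (SE 0.25, adjusted p = 0.000159), while Spry4 fell by 2.68 (SE 0.41, adjusted p = 0.00039). Spry2 was lower with Tspan8 in MHCIIlo (-2.11, SE 0.33, adjusted p = 0.000414).

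Among 29 related ligands of the same families found in the table, 25 passed the filter. With Tspan8, 6 were higher and 3 lower in MHCIIlo and 6 higher and 2 lower in MHCIIhi, and with MHCII 8 were higher and 5 lower in Tspan8neg and 4 higher and 1 lower in Tspan8pos. The share called was 36%, 32%, 52% and 20%, against 21.4%, 18.5%, 22.7% and 7.21% of all genes, and the list medians were 0.14, 0.04, 0.20 and -0.04. Areg, Hbegf and Tgfa, ligands of the EGF receptor, rose with Tspan8 at both MHCII levels. Areg rose by 3.91 (SE 0.28, adjusted p = 1.59e-06) in MHCIIlo and 2.61 (SE 0.23, adjusted p = 7.87e-06) in MHCIIhi, from means of 20.4 and 52.2 to 319 and 312 normalized counts. Tgfb1 was lower with Tspan8 in MHCIIlo (-2.14, SE 0.20, adjusted p = 1.15e-05), opposite to Tgfb2. Bmp6 was higher with Tspan8 in MHCIIhi (1.99, SE 0.25, adjusted p = 0.000113). With MHCII, Bmp3 and Igf1 rose and Il25 fell in both Tspan8neg and Tspan8pos, Igf1 by 3.61 (SE 0.29) and 3.81 (SE 0.30) and Il25 by -3.91 (SE 0.32) and -2.89 (SE 0.25). Il25, the tuft cell cytokine, was highest in Tspan8posMHCIIlo (513 and 324 normalized counts), where the sum of the 6 tuft markers, of which it is one, was highest too. The part of tuft cells in the Il25 values was not tested. Tgfb3 fell by 1.85 on the log2 scale with MHCII in Tspan8neg (SE 0.18, adjusted p = 1.55e-05).

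Of 15 antagonists and carriers of the ligands 14 passed the filter. With Tspan8, 2 were higher and 5 lower in MHCIIlo and 3 higher and 2 lower in MHCIIhi, and with MHCII 2 were higher and 6 lower in Tspan8neg and 2 higher and 3 lower in Tspan8pos. The share called was 50%, 35.7%, 57.1% and 35.7%, again against 21.4%, 18.5%, 22.7% and 7.21% of all genes, and the medians were -0.80, -0.43, -0.82 and -0.22. Ltbp3 and Ltbp4, which hold latent TGF-beta in the matrix, were highest in Tspan8negMHCIIlo, with means of 665 ± 165 and 556 ± 95.9 normalized counts (SD, n = 2), and fell by 2.69 (SE 0.20, adjusted p = 3.12e-06) and 2.99 (-2.99 on the log2 scale, SE 0.22, adjusted p = 3.58e-06) with MHCII in Tspan8neg. Ltbp2, a family member, was higher with Tspan8 in MHCIIhi by 1.26 (SE 0.14, adjusted p = 4.93e-05). The BMP antagonists were called in opposite directions. Grem1 was higher with MHCII in Tspan8pos (1.84, SE 0.22, adjusted p = 0.000274) and with Tspan8 in MHCIIhi (1.08, SE 0.21, adjusted p = 0.00183). The first Grem1 call held in all 14 alternatives and the second in 11 of 14. Fst fell by 4.18 on the log2 scale with MHCII in Tspan8neg (SE 0.54, adjusted p = 0.000126), and Chrd was lower with Tspan8 in MHCIIlo (-2.79, SE 0.40, adjusted p = 0.000253). Chrdl1 had 108 and 99.8 normalized counts in Tspan8posMHCIIlo and 2.94 to 18.3 elsewhere.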

How the data were processed

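RNA-seq was analysed for 8 libraries of sorted mTECs, grouped by the subset and replicate number in the sample titles. The authors deposited estimated counts per gene and library as whole numbers. Per the study's methods and the submitters' processing notes, reads were quantified with Salmon 1.8.0 on a Gencode mouse transcriptome and tested with DESeq2 1.30.0, whose output was not used. The rounding step is not named, and rounding again changed no value. The methods describe amplified cDNA cut by a transposase and the labels a stranded mRNA kit, so counts of genes with an antisense partner are uncertain. Gene lengths, symbols and coordinates came from a later GENCODE release (GRCm38), which matched 25336 of 25466 identifiers (99.49%). Promoter windows came from RefSeq (GRCm38.p6), and 7 of the 10 members had one that was used. None was used for Il7, Il15 and Tslp, and windows on chromosome 18, where Tslp lies, were left out.

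Tests used edgeR 4.0.16, run in R 4.3.3 beside DESeq2 1.42.0 and limma 3.58.1. A mean per subset was fitted to the 8 libraries together by quasi-likelihood after filterByExpr and TMM scaling (common dispersion 0.024), and p-values were adjusted by Benjamini-Hochberg over 17006 genes. P-values are two-sided. The SE was derived from the F statistic as the size of the log2 difference over its root. Exact permutation of 2 against 2 libraries cannot reach p = 0.05 and was not used. Library totals were 1941518 to 7783841, and the floor is 3 counts per library. Amplified reads are not independent molecules, so counting intervals cover counting error only.

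The 10 members are all named. Receptors are named beside their ligand, called genes of the other lists by the smallest adjusted p (up to 4 per list and comparison), and genes of like pattern for members with a range of at least 2 log2 CPM between subset means. Klb, Atf4 and the cell type markers are named for their values. Results for some genes of the lists are not reported here. The members, lists and tests were chosen with earlier results of these data known. The settings varied were the tool (Wald test of DESeq2), the scaling (its size factors in edgeR), the filter (none, or 10 or more counts in 4 or more libraries), the libraries fitted (the 4 compared, or all but 1), a replicate block, and the limits (adjusted p of 0.05, or none on the fold). Their use for genes and lists beyond the members was added later. Scripts were tested on simulated data. ATAC-seq and ChIP-seq data were not analysed here.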

Additional observations from a re-analysis of the deposited data

Results flagged for a closer look

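The Tspan8 effect (log2 Tspan8pos to Tspan8neg) was tested for a difference between the MHCII levels as an interaction in edgeR's quasi-likelihood fit. This interaction was called for 4.6% of all genes tested and for 0 of the 10 members. In the lists it was called for 4 of 27 receptors, 3 of 25 related ligands and 2 of 14 antagonists and carriers. It was also called for 6 of 22 pathway genes, 2 of 12 hypoxia-induced genes and 5 of 10 stress response genes. The 19 genes named below were picked from these calls by smallest adjusted p, so their number cannot be compared with that of the members. Each value below is the effect in MHCIIlo minus that in MHCIIhi on the log2 scale, with all adjusted p-values between 0.000315 and 0.00942.

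Among receptors, the difference was 1.91 for Kit, 1.91 for Fgfr3, -2.51 for Tgfbr2 and -2.55 for Fgfr2. Kit, Dusp6, Socs3 and Gdf15 were called in all 13 alternatives run. Of the related ligands, Pgf, a placental growth factor of the VEGF family, had -3.27, Igf2 -2.70 and Tgfa 1.48. The latent TGF-beta carrier Ltbp3 had -1.58 and Fstl1 -1.31. Pathway target and feedback genes had values of one sign, with -2.36 for Dusp6, -1.84 for Socs3, -1.83 for Id3 and -1.96 for Id1. The hypoxia-induced genes Egln3 (-1.38) and Adm (-1.39) were both negative. The stress response genes had both signs, with 2.22 for Gdf15, 1.15 for Sesn2, 1.68 for Asns and -1.31 for Atf3. Beside Kit, the tuft markers were highest in Tspan8posMHCIIlo, and their part was not tested. Tgfbr2 was called in 12 and Fgfr3 in 11 of the 13 alternatives. Fgfr2, Pgf, Igf2, Id3, Id1, Egln3 and Adm were called in 8, Atf3 and Asns in 7, and Tgfa, Ltbp3, Fstl1 and Sesn2 in 6.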

How the results depend on the processing

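Of 70 log2 fold changes (10 members in 7 comparisons), 22 were called and 12 of these were called under every alternative run, among them all 5 of Fgf21 and all 3 of Il15. No called value changed sign. Counts of called members moved as follows. With Tspan8 in MHCIIlo (5 members), only the 4 libraries compared gave 2, and leaving out 1 library gave 1 to 5, with 1 without Tspan8posMHCIIlo replicate 2 and 3 without either Tspan8negMHCIIhi or Tspan8posMHCIIhi library. With MHCII in Tspan8neg (5) the range was 3 to 7, the low without Tspan8negMHCIIhi replicate 2, and in Tspan8posMHCIIlo against Tspan8negMHCIIhi (5) it was 3 to 5, the low without Tspan8posMHCIIlo replicate 2. With MHCII in Tspan8pos (1) the count was 2 with no filter, with the 4 libraries compared, with the replicate block, at an adjusted p of 0.05, with no fold limit, and over a range of 1 to 2 when a library was left out. For the interaction (0) it was 1 at an adjusted p of 0.05 and 0 to 2 when a library was left out, the high without Tspan8negMHCIIlo replicate 2. A subset left with 1 library was assumed to vary like the others.

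Values that changed sign were uncalled. Il15 with Tspan8 in MHCIIlo (-0.01) became 0.0227 with no filter and ranged from -0.20 to 0.18 when a library was left out. Il7 with Tspan8 in MHCIIhi (0.01) became -0.0603 in DESeq2, -0.0573 with DESeq2's size factors, -0.0236 with no filter, -0.0350 with at least 10 counts in 4 libraries and -0.0173 with the replicate block, and ranged from -0.21 to 0.20. When a library was left out, Bmp4 with Tspan8 in MHCIIlo ranged from -0.77 to 0.054, Kitl with Tspan8 in MHCIIhi from -0.39 to 0.31, Kitl with MHCII in Tspan8neg from -0.94 to 0.76, Pdgfa with MHCII in Tspan8neg from -0.44 to 0.13, Tslp with MHCII in Tspan8pos from -0.56 to 0.33, Flt3l in Tspan8posMHCIIlo against Tspan8negMHCIIhi from -0.28 to 0.35, Kitl in Tspan8posMHCIIhi against Tspan8negMHCIIlo from -0.94 to 0.77 and the Vegfa interaction from -0.32 to 0.051. The causes were not tested.

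Libraries with the same number shared little deviation from their subset means (r of 0.00402 to 0.0924). With 2 libraries per subset, these values cannot decide whether such libraries shared mice. The numbers were not taken as pairs because the study's methods name no pairing. With the replicate block the calls over all genes went from 783 to 1236 in the interaction and moved by less than 1.5 times elsewhere, and among members the block added calls for Il7 (-1.13, with Tspan8 in MHCIIlo) and Tgfb2 (1.05, with MHCII in Tspan8pos) and lost that of Tslp in Tspan8posMHCIIhi against Tspan8negMHCIIlo (adjusted p = 0.0104). Bmp4 and Tslp, with 0 to 53 counts per library, are limited by depth. The 166 named results of the other lists had been picked because they were called in the main fit. Of these, 111 were called under every alternative and 0 changed sign, an outcome that the picking favours.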
